A study of Arabidopsis thaliana with 8 samples.

Results

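The 10 core genes of the plant circadian clock were followed in floral buds of Arabidopsis thaliana after activation of the petal regulator RABBIT EARS (RBE). They were picked by gene name, with earlier results of these data known: LHY and CCA1 for the morning, and PRR9, PRR7, PRR5, PRR3, TOC1, GI, FKF1 and LUX for the day to the evening. All 10 were among the 28775 genes of the deposited table, and all had reads under both treatments. The first group, called DEX, was mixed-stage buds of L er plants with the 35S:GR-RBE transgene, treated for 4 h with 10 µM dexamethasone in 0.1% ethanol and 0.015% Silwet. The second group, called mock, was buds of the same plants given the same solution without dexamethasone. In both groups a constitutive viral promoter therefore drove RBE, fused to a steroid receptor domain that keeps it out of the nucleus until dexamethasone is given. Dexamethasone-treated buds without the transgene were not analysed here. Plants grew at 22 °C under 16 h of light and 8 h of dark. The sources used here do not give the hour of harvest, which bears on every level of a gene with a daily rhythm.

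Each group had 4 libraries of poly-A RNA, from 2 biological replicates with 2 technical replicates each, but the authors' deposited table gives 1 pooled value per gene and treatment. No difference below therefore has a replicate check, and the spread between replicates is unknown. Recovered reads summed to 102142647 in the DEX pool, against 119056377 in the mock pool. Errors written with ± are standard errors of counting, and intervals are 95% counting intervals. A direction was called where the authors' posterior probability of the opposite one was under 0.05. By this rule 36.4% of the 24945 genes with reads in both pools were called higher in DEX and 20.8% lower. Floral identity genes marked the tissue: AP1, AP3, PI, AG, SEP3 and LFY all had reads, and all 6 had a ratio of DEX over mock below 1, with log2 ratios from -0.68 to -0.03. In a bulk sample fewer cells of a type and less RNA per cell cannot be told apart.

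The clock is a loop of repressors that follow each other through the day. The MYB transcription factors CCA1 and LHY accumulate at dawn and repress evening genes through a promoter motif, the evening element. The pseudo-response regulators PRR9, PRR7, PRR5, PRR3 and TOC1 follow in about that order, and most of them repress CCA1 and LHY in turn. GI and the blue-light receptor FKF1 act at the end of the day, when they control protein degradation and flowering, and LUX binds DNA for the evening complex, which represses genes in the night.

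Of the 10 clock genes, 6 were called higher in DEX, 1 lower and 3 not called. PRR5, FKF1, CCA1, TOC1, GI and PRR3 were higher, each by less than 1.5-fold, LUX was slightly lower, and LHY, PRR9 and PRR7 were not called. The 6 higher of 10 compare with 36.4% of all genes and with 42.9% of the 17218 genes with 594 to 46018 reads, the range of the clock genes. The 1 lower of 10 compares with 20.8% of all genes and with 24.2% in that range. After centring all genes on a median of 0, the clock genes had 6 higher and 3 lower, against 27.5% of all genes higher and 27.5% lower. The median log2 ratio of the clock genes was 0.19, against 0.05 for all genes with reads in both pools. None of the 10 lay outside the central 95% of genes with a similar number of reads, that is, within 1.5 times their own. At 1.5-fold or more, 0 of the 10 were called in either direction, against 4.45% of all genes higher and 2.91% lower. In the read range of the clock genes the shares were smaller, at 328 of 17218 genes higher and 352 lower.

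**Figure D1:**
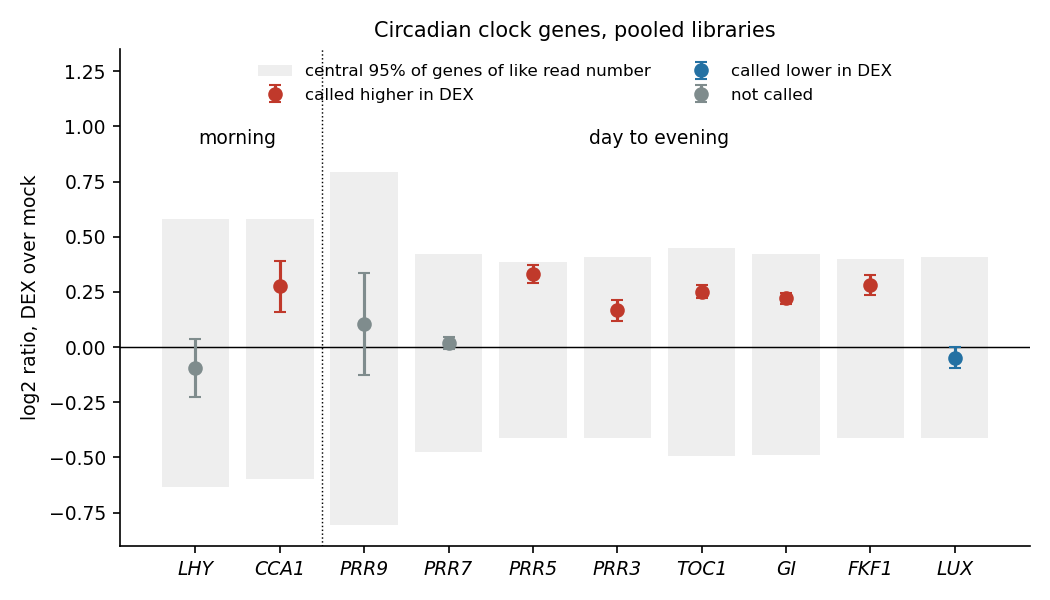
Log2 ratio of DEX over mock for the 10 clock genes (points, with 95% counting intervals), morning genes first and then day-to-evening genes, with grey bars for the central 95% of genes with a similar number of reads. PRR5 stands highest at 0.33 and LHY lowest at -0.09, and every point lies inside its grey bar.

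The morning genes did not share a call. CCA1 (AT2G46830, chromosome 2, 19245591 to 19248915 of TAIR10.1, plus strand), one of the dawn repressors, had 1194 recovered reads in DEX, against 1150 in mock. Its level was 4.29 in DEX, in reads scaled to exonic length and to the reads of the pool (RPKM), and 3.55 RPKM in mock, a log2 ratio of 0.27 ± 0.06, and the posterior that DEX was higher was 1 to the precision of the authors' deposited table. LHY (AT1G01060, chromosome 1, 33365 to 37871, minus strand), its closest relative and partner, had 845 reads in DEX, against 1052 in mock, or 2.42 RPKM in DEX and 2.58 RPKM in mock. Its log2 ratio was -0.09 ± 0.07, with an interval from -0.22 to 0.04, and the posterior that DEX was higher was 0.076, so it was not called. It stood at -0.14, called lower, when all genes were centred on a median of 0. The log2 ratio of LHY minus that of CCA1 was -0.37, with a counting interval from -0.54 to -0.19. This difference between both partners does not depend on the scaling between the pools.

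The upstream sequences of these genes are shown because CCA1 and LHY share the G-box, a site bound by light-signalling and other bZIP and bHLH factors. Neither held an evening element in the window searched. The sequences are the 250 bases before the annotated start in RefSeq TAIR10.1, a reference of the Columbia strain and not of L er, with the G-box CACGTG in capitals.
CCA1, chr2:19245341-19245590, plus strand: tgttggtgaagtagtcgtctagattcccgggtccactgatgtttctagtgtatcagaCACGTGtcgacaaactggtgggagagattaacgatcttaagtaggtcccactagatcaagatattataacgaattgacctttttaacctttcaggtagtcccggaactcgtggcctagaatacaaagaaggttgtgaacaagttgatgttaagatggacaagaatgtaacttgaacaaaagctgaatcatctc
LHY, chr1:37872-38121, minus strand: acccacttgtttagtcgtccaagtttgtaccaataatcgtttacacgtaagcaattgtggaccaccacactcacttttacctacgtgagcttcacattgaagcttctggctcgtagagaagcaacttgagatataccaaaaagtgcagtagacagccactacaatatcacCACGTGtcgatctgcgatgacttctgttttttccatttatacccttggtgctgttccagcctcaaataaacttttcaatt
In a window from 250 bases before to 50 bases after the start, searched on both strands, the G-box was present in 5 of the 10 clock genes (LHY, CCA1, PRR9, PRR7 and LUX), against 7.68% of 27443 nuclear protein-coding genes. CCA1 and LHY thus had this motif in common, while CCA1 was called higher and LHY was not called.

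Among the pseudo-response regulators, PRR5 had the highest ratio and PRR7 a ratio near 1. PRR5 (AT5G24470, chromosome 5, 8356204 to 8358546, minus strand), a repressor of CCA1 and LHY in the afternoon, had 10578 reads in DEX, against 9795 in mock. Its level was 61.8 RPKM in DEX and 49.1 RPKM in mock, a log2 ratio of 0.33 ± 0.02, or 1.26-fold. Of the 2683 genes with a similar number of reads, 96.5% had a lower ratio than PRR5, so it stood near the upper edge of their range. TOC1 (AT5G61380, chromosome 5, 24674963 to 24678550, plus strand), the evening member that represses CCA1 and LHY, had 18821 reads in DEX, against 18436 in mock. Its level was 65.6 RPKM in DEX and 55.1 RPKM in mock, a log2 ratio of 0.25 ± 0.01. PRR3 (AT5G60100, chromosome 5, 24197971 to 24201415, minus strand), which protects TOC1 protein from degradation, had 6884 reads in DEX, against 7149 in mock, and levels of 24.0 RPKM in DEX and 21.4 RPKM in mock. Its log2 ratio of 0.17 ± 0.02 was the smallest of the 6 higher calls. All 3 genes had a posterior of 1 for DEX being higher in the authors' deposited table.

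The earlier pseudo-response regulators were not called. PRR7 (AT5G02810, chromosome 5, 637681 to 642030, minus strand), a repressor that acts from morning to midday, had 19289 reads in DEX, against 22195 in mock, or 58.4 RPKM in DEX and 57.7 RPKM in mock. At this depth its log2 ratio of 0.02 had an interval from -0.01 to 0.05, and it turned to -0.025, called lower, when all genes were centred on a median of 0. PRR9 (AT2G46790, chromosome 2, 19232607 to 19235179, plus strand), the first of the family to peak, was the least abundant clock gene, with 285 reads in DEX, against 309 in mock. Its levels were 1.30 RPKM in DEX and 1.21 RPKM in mock, and its log2 ratio of 0.10 had a wide interval, from -0.13 to 0.34. A difference of the size seen in PRR3, 0.17, could have been missed for PRR9, whose counting error was 0.12. PRR9 shares 333 aligned bases at 100% identity and 440 at 99.3% with AT2G46670, which had 5 reads in DEX, against 4 in mock, so reads of PRR9 may have been lost or shared between both.

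The ratio of PRR5 differed from that of PRR7 by 0.31 on the log2 scale, with an interval from 0.27 to 0.36 for PRR5 minus PRR7. That of TOC1 was 0.08 below PRR5, with an interval for PRR5 minus TOC1 from 0.03 to 0.13. Within the family the ratio thus stood higher in the later members PRR5 and TOC1 than in PRR7, while PRR3 lay between them. The intervals of PRR9 against PRR7, PRR5, PRR3 and TOC1 all covered 0, so PRR7 alone stands for the earlier members here. These intervals cover counting error only.

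GI and FKF1, which act together at the end of the day, were both called higher. GI (AT1G22770, chromosome 1, 8061751 to 8067790, plus strand), a large plant-specific protein that stabilises ZTL and works with FKF1 to degrade repressors of CONSTANS, had 23009 recovered reads in each pool. Since the DEX pool was the smaller one, this made 52.4 RPKM in DEX and 44.9 RPKM in mock, a log2 ratio of 0.22 ± 0.01. FKF1 (AT1G68050, chromosome 1, 25508639 to 25510907, plus strand), an F-box protein that senses blue light, had 7940 reads in DEX, against 7620 in mock. Its level was 35.9 RPKM in DEX and 29.5 RPKM in mock, a log2 ratio of 0.28 ± 0.02. FKF1 shares 21 of its 2168 exonic bases with MAP70-1 on the other strand. The difference of GI minus FKF1 was -0.06, with an interval from -0.11 to -0.01.

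LUX was the only one of the 10 clock genes called lower in DEX. LUX (AT3G46640, also named PCL1, chromosome 3, 17183042 to 17186959, plus strand) had 6249 reads in DEX, against 7527 in mock, or 15.6 RPKM in DEX and 16.1 RPKM in mock. Its log2 ratio was -0.05 ± 0.02, or 1.03-fold lower, with a posterior of 0.028 that DEX was higher. The call is marginal: the counting interval, from -0.10 to 0.0008, just covered 0, and at a posterior limit of 0.01 LUX was not called. LUX overlaps 698 exonic bases of AT3G46650 on the other strand, which had 99 reads in DEX against 229 in mock, giving a log2 ratio of -0.98 ± 0.17. Whether the counting used strand was not given, so some of these reads may have been assigned to either gene.

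The upstream sequences of PRR5, TOC1, FKF1 and LUX are shown because all 4 hold the evening element, AAAATATCT or its reverse complement AGATATTTT, while 3 were called higher and LUX lower. The element is in capitals in the 250 bases before each start.
PRR5, chr5:8358547-8358796, minus strand: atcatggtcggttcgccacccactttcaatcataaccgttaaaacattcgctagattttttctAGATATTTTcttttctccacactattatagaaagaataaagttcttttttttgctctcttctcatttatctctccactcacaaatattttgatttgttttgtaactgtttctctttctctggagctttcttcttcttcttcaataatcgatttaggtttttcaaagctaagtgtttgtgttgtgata
TOC1, chr5:24674713-24674962, plus strand: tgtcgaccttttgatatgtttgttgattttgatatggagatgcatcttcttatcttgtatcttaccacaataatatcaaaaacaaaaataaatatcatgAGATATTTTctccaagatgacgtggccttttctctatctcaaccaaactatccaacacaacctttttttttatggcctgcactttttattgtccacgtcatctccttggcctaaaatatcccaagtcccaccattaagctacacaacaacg
FKF1, chr1:25508389-25508638, plus strand: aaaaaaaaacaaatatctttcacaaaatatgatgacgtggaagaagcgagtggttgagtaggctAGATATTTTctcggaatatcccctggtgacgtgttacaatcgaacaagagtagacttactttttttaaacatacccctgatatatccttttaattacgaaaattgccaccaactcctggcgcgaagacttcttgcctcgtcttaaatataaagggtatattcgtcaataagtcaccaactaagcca
LUX, chr3:17182792-17183041, plus strand: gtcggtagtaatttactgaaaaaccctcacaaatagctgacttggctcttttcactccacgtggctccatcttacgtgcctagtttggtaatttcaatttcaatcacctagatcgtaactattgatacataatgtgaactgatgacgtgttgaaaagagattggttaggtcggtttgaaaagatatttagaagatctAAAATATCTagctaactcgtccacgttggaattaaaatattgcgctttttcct
FKF1 has a further copy that begins at its start, and PRR9 has 1 copy that begins 26 bases after its start. With these, 5 of the 10 clock genes held the evening element in the searched window, against 2.82% of the 27443 genes. GI and PRR3 held none of the 5 motifs searched in this window. The shorter CCA1-binding site AAAAATCT was present in PRR5 alone of the 10, against 7.88% of all genes, and the LUX-binding site GATNCG in PRR9 alone, against 20.5%. The TCP site GGNCCC was present in CCA1 and PRR7, against 8.68%. A match describes these letters in this window and is not a binding site.

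By phase, the day-to-evening and the morning genes were not told apart in ratio by counting while all 10 were kept. The 8 day-to-evening genes summed to 93054 reads in DEX against 96041 in mock, giving a log2 ratio of 0.18 ± 0.01. The 2 morning genes summed to 2039 reads in DEX against 2202 in mock, giving a log2 ratio of 0.11 ± 0.04. The difference of day-to-evening minus morning was 0.07, with an interval from -0.02 to 0.15, which covers 0. Without PRR7, left out after its value was seen, the difference was 0.11, with an interval from 0.02 to 0.20, which does not cover 0. Single genes varied within each phase: the ratios of the morning genes lay 0.37 apart and those of the day-to-evening genes ranged over 0.38. LHY at -0.09 lay below the day-to-evening ratio of 0.18, and CCA1 at 0.27 lay above it. Of the 45 pairs of clock genes, 19 had a difference of ratios whose interval covered 0. They include every pair with PRR9, the clock gene with the fewest reads, and CCA1 with TOC1 and with FKF1. The ratio of the dawn gene CCA1 was thus not told apart by counting from that of the evening genes TOC1, at a difference of 0.02 with an interval from -0.10 to 0.14, and FKF1, at -0.01 with an interval from -0.13 to 0.12. The other dawn gene, LHY, lay below both. LHY minus TOC1 was -0.34, with an interval from -0.48 to -0.21, and LHY minus FKF1 was -0.37, from -0.51 to -0.24. The intervals of LHY also excluded 0 against PRR5, PRR3 and GI, but covered 0 against PRR9, PRR7 and LUX.

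**Figure D2:**
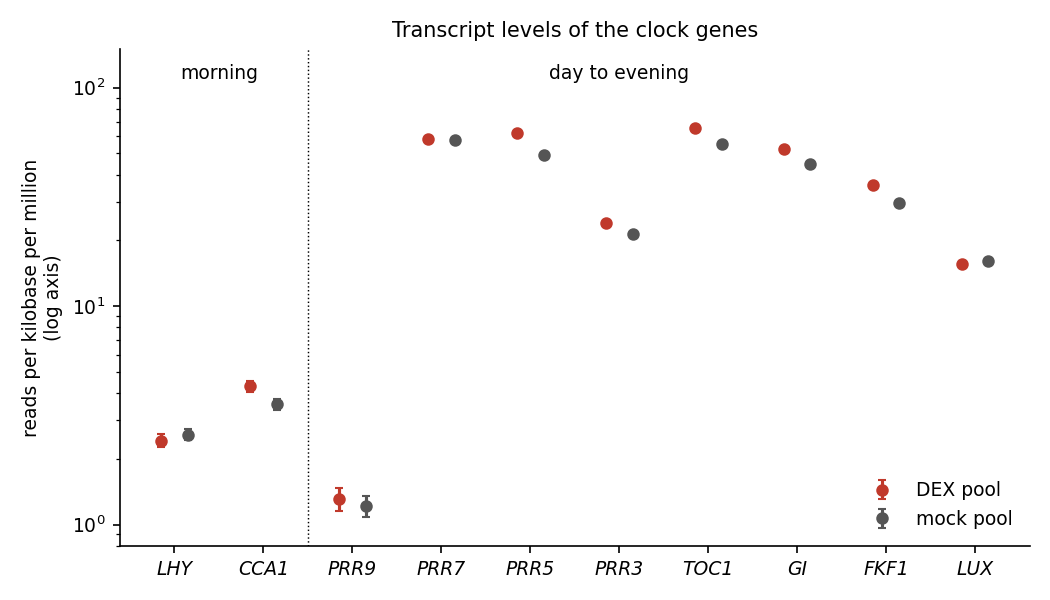
Transcript level of each clock gene in the DEX and mock pools, in RPKM on a log axis, with 95% Poisson intervals that are smaller than most points. LHY, CCA1 and PRR9 lie below 5 RPKM in both pools and the other 7 genes above 15 RPKM.

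By level, the clock genes fell into a low and a high set that cut across the treatments. In DEX the order was TOC1, PRR5, PRR7, GI, FKF1, PRR3, LUX, CCA1, LHY and PRR9, with no overlap of neighbouring Poisson intervals. In mock PRR7 stood first with 57.7 RPKM, ahead of TOC1 with 55.1 RPKM and PRR5 with 49.1 RPKM, and the rest followed in the same order as in DEX. The level of CCA1 was 0.0654 times that of TOC1 in DEX and 0.0644 times in mock, so the proportion of this dawn gene to this evening gene was similar in both pools. This did not hold for the other dawn gene: the level of LHY was 0.0369 times that of TOC1 in DEX and 0.0468 times in mock. The level of LHY was 0.563 times that of CCA1 in DEX and 0.728 times in mock.

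**Figure D3:**
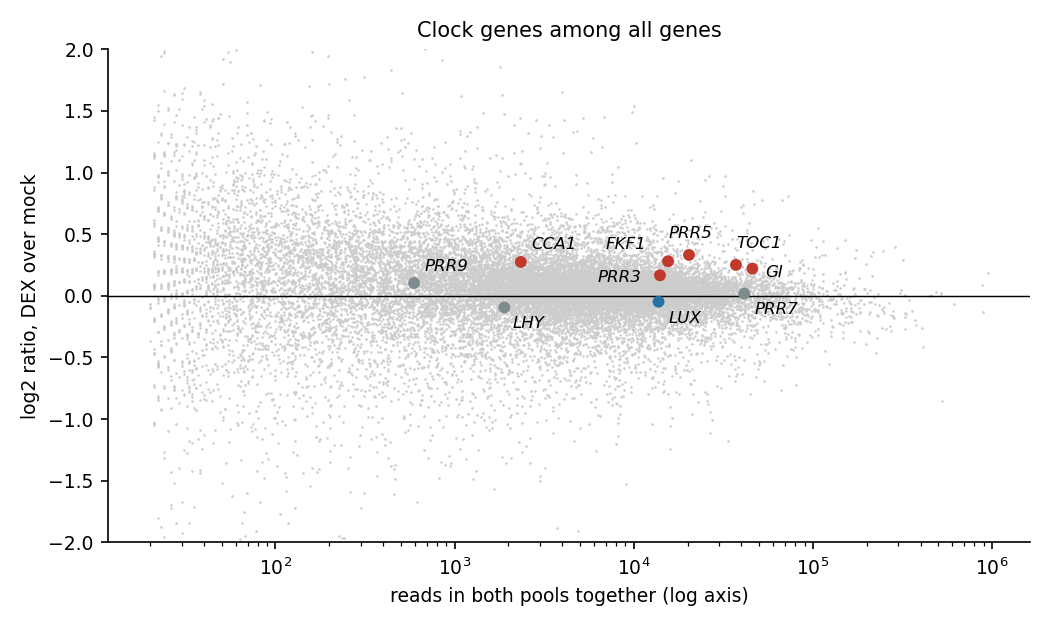
Log2 ratio of DEX over mock against the reads of both pools together (log axis) for 22936 genes with at least 20 reads (grey; 31 lie beyond the axis) and the 10 clock genes (red, called higher; blue, called lower; dark grey, not called). The clock genes sit within the cloud of all genes, with PRR5, TOC1, GI and FKF1 in its upper part.

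Partners of the 10 genes were taken from 5 further lists with 46 genes. Of these, 17 were called higher in DEX, 9 lower and 20 not called, with a median log2 ratio of 0.03. Their shares of 37.0% higher and 19.6% lower were near those of all genes, 36.4% and 20.8%.

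All 5 genes of a list of other evening-phased genes (COR27, COR28, JMJD5, GRP7 and GRP8) were called higher, with a median log2 ratio of 0.18. By the same rule 36.4% of all genes were higher, and 42.9% of those in the read range of the clock genes. GRP7 and GRP8, with 950745 and 135800 reads in both pools together, lay above that range. For them the share is not matched in depth, and at such depth small differences are called. Only 1 of the 5, COR28, was higher at 1.5-fold or more. This list, too, was drawn up with earlier results known. COR28, a small protein that regulates the clock and responds to cold and light, had 1977 reads in DEX against 1452 in mock, giving a log2 ratio of 0.67 ± 0.05. COR27, its relative, had 4148 reads in DEX against 3435 in mock, giving a log2 ratio of 0.49 ± 0.03. GRP7 and GRP8, glycine-rich RNA-binding proteins that form a slave oscillator, were at 0.18 ± 0.003 and 0.12 ± 0.01. GRP7 was very abundant, with 3942 RPKM in DEX and 3473 RPKM in mock. All 5 genes held the evening element in the searched window.

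Of the 12 RVE and LNK genes, 3 were called higher, 4 lower and 5 not called. RVE2 and RVE6, MYB-like relatives of CCA1, were at 0.44 ± 0.04 and 0.27 ± 0.05. RVE1, a relative that links the clock to auxin, was at -0.30 ± 0.06, and LNK3, of the coactivator family, at -0.24 ± 0.06. RVE8, the activator of evening genes, was not called, at 0.06 ± 0.07. RVE1, LNK2 and LNK3, 3 of the 4 lower calls, share 225, up to 93 and 5 exonic bases with genes on the other strand. Without genes that overlap another or have a near-identical copy, 1 of this list was called lower.

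Of the 7 genes of the evening complex and the ELF4 family, 3 were called higher and 0 lower. This 42.9% higher equals the share of genes in the read range of the clock genes. Over all genes 36.4% were called higher and 20.8% lower. ELF4, a component of the complex with LUX, was at 0.10 ± 0.04, and its relatives EFL4 and EFL2 were at 0.29 ± 0.05 and 0.15 ± 0.05. ELF3, the scaffold of the complex, was at 0.03 ± 0.02, and BOA, the closest relative of LUX, at 0.05 ± 0.03, and neither was called. BOA shares 1679 exonic bases with a gene on the other strand. ELF4 and ELF3 thus did not share the marginal lower call of LUX.

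Other clock-associated proteins, among them F-box proteins, kinase subunits, RNA-processing factors and the LWD proteins, showed small ratios. Of 12, 3 were called higher, 3 lower and 6 not called, and the log2 ratios ranged from -0.17 to 0.11. Over all genes 36.4% were called higher and 20.8% lower. ZTL and LKP2, the F-box relatives of FKF1, were at 0.04 ± 0.02 and 0.01 ± 0.04 and were not called. SKIP, a splicing factor, was at 0.11 ± 0.01 and CKB3, a casein kinase subunit that modifies CCA1, at 0.11 ± 0.03. TIC was at -0.11 ± 0.01 and LWD1, a coactivator of CCA1, at -0.17 ± 0.03.

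Of the 10 photoperiod outputs, 3 were called higher, 2 lower and 5 not called, against 36.4% of all genes higher and 20.8% lower. The lower count was 4 when all genes were centred on a median of 0 or corrected for GC content and length, and 1 without genes that overlap another. CDF1, a repressor of CONSTANS and a target of FKF1 and GI, had 424 reads in DEX against 336 in mock, giving a log2 ratio of 0.56 ± 0.11. CDF3, of the same family, was at 0.16 ± 0.04. COL2, a relative of CONSTANS, was at -0.29 ± 0.07 and PIF5, a growth-promoting factor repressed by the evening complex, at -0.18 ± 0.04. CONSTANS and the flowering signal FT were not called, at -0.12 ± 0.15 and -0.07 ± 0.07. CONSTANS shares 738 exonic bases with a gene on the other strand. COL2 overlaps 506 and 212 exonic bases of 2 genes on the other strand, so its reads are uncertain.

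**Figure D4:**
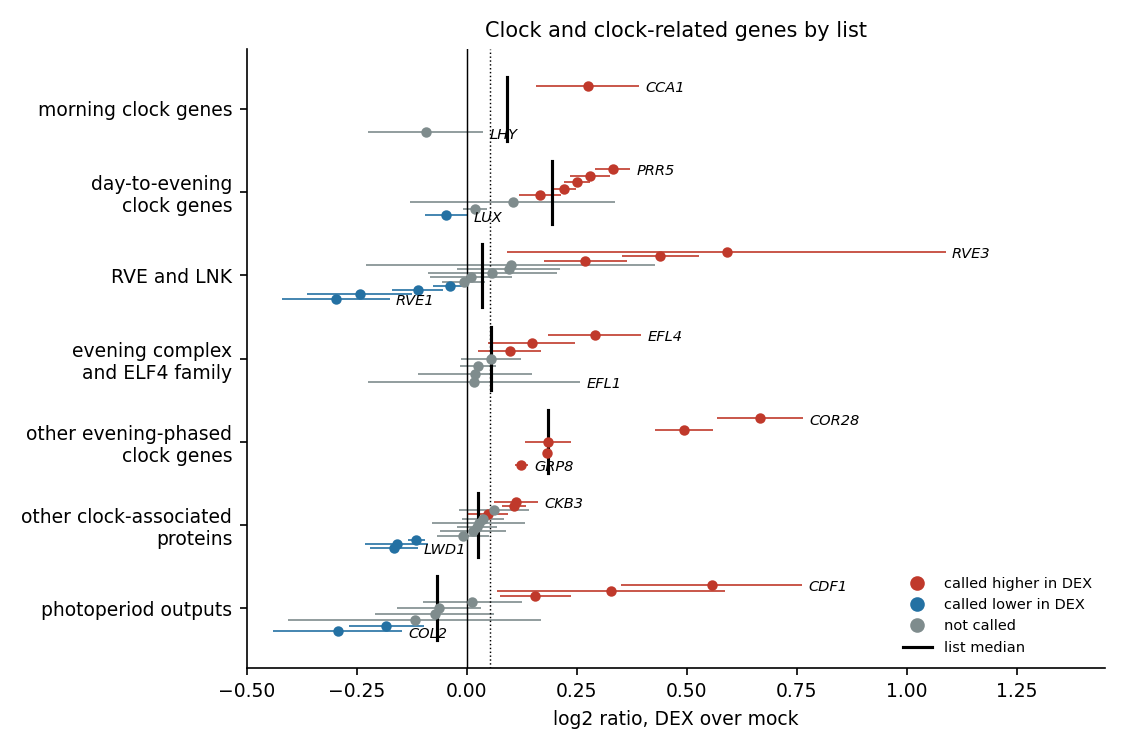
Log2 ratio of DEX over mock of the 10 clock genes and the 5 further lists (points, with 95% counting intervals; black bars, list medians; dotted line, median of all genes at 0.05; COL1, with 7 reads, is not drawn). Every gene of the other evening-phased list lies above 0, up to COR28 at 0.67, as does every gene of the evening complex and ELF4 family, up to 0.29, though ELF3, EFL1 and EFL3 fall below 0 when all genes are centred on a median of 0, while the other lists hold ratios on both sides of 0.

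The evening element was present in genes of every call. Of the 56 clock and clock-related genes, 13 held it, of which 8 were called higher, 2 lower and 3 not called, with a median log2 ratio of 0.18. Of the 43 without it, 15 were called higher and 8 lower, 20 were uncalled, and the median was 0.02. The 2 lower genes with the element were LUX and COL2. The 8 higher ones include all 5 of the other evening-phased list, which was drawn up with earlier results known. The contrast between genes with and without the element thus rests in part on that choice. Among the 10 clock genes, PRR5, TOC1 and FKF1 were called higher with the element in this window, and CCA1, PRR3 and GI without it there. Over the searched genes with reads in both pools, 42.2% of the 711 with the element were called higher and 21.7% lower, against 36.7% and 21.2% of the 23578 without it. Their medians were 0.06 with the element and 0.05 without it.

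Markers of tissues in the buds moved between the pools as well. All 3 late pollen markers, VGD1, AGP11 and AGP6, had log2 ratios from 0.29 to 0.37, and their levels summed to 742 RPKM in DEX and 584 RPKM in mock. All 3 green tissue markers, RBCS1A, LHCB4.1 and LHCB2.1, had log2 ratios from -0.52 to -0.13, with sums of 3904 RPKM in DEX and 4405 RPKM in mock. Of the 10 clock genes, whose log2 ratios ranged from -0.09 to 0.33, PRR5 alone lay within the range of the pollen markers. FKF1 at 0.28 ± 0.02 and CCA1 at 0.27 ± 0.06 lay below that range by less than their counting errors. The part of tissue composition in the clock ratios was not tested, and this comparison does not measure it.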

How the data were processed

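Poly-A RNA of 8 libraries was, per the labels' protocols, read on an Illumina Genome Analyzer. The submitters' processing notes name TopHat 1.2.0, HTSeq 0.4.5p6 and TAIR10 but not what each was used for. The authors deposited 1 table with the layout of LOX output, relative expression levels estimated from counted reads. Per the file headers, it holds for each gene a ratio to the lower treatment, a posterior probability of direction as a fraction between 0 and 1, and a log-likelihood score. All values pool the libraries of a treatment. The planned count test per biological replicate therefore had no input, and the fallback of the authors' posterior was used.

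Reads per pool were recovered from the deposited score, read as a Poisson log-likelihood: each pool adds N ln(N/T) - N, where N is the gene's reads and T the pool's. The formula is inferred and unstated in the sources, and all reads, RPKM values and counting errors rest on it. It gave whole reads within 0.05 for all 907 genes compared, of 908 with reads in 1 pool (the other had too many reads for this check), and totals within 0.1 of whole for 99.98% of 8294 genes with up to 1000 reads. The recovery was also run on simulated reads, whose scores were written by the same formula, so that run does not check the formula. Turned into a normal deviate, the posterior followed the ratio over its counting error with a slope of 1.0 (8089 genes), so the posterior holds no visible term for spread between replicates. Counting errors do not allow for PCR copies.

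Positions, exonic lengths, overlaps and sequences came from RefSeq TAIR10.1, which 28009 listed loci matched. Overlaps count shared exonic bases, and near-identical copies are blastn 2.17.0 matches of at least 95% identity over 100 bases. All 10 clock genes are described. From each further list, up to 4 genes with at least 200 reads and the smallest posterior of the opposite direction were named, and ELF3, RVE8, ZTL, LKP2, CONSTANS and FT were named after their values were seen. JMJD5, LNK2, RVE3, EFL1, EFL3 and COL1 are also named outside this rule. The members and lists were chosen with earlier results of these data known. Alternatives were the scaling between pools, the posterior and fold limits, a GC and length correction, and the removal of overlapping genes. The software was Matplotlib 3.10.9, SciPy 1.17.1, pandas 2.3.3 and NumPy 2.4.6 under Python 3.11.15.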

Additional observations from a re-analysis of the deposited data

How the results depend on the processing

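No paired analysis was possible because the table gives 1 value per gene and treatment, and likewise no replicate could be left out. With the median log2 ratio of all genes (0.04) set to 0, 6 of the 10 clock genes were called higher and 3 lower, against 27.5% of all genes in each direction. LHY then stood at -0.14 and PRR7 at -0.025, both called lower. After correction for GC content and length, by the median of the 500 most similar genes, the counts were also 6 and 3, with LHY at -0.17 and PRR7 at -0.048. At a posterior limit of 0.01 LUX, at -0.048, was not called, which left 0 lower. Leaving out genes that overlap another or have a near-identical copy removed FKF1, LUX and PRR9, which left 5 higher and 0 lower by construction. At 1.5-fold or more 0 of the 10 were called: PRR5 at 0.33, FKF1 at 0.28, CCA1 at 0.27, TOC1 at 0.25, GI at 0.22, PRR3 at 0.17 and LUX at -0.048. Of the 5 other evening-phased genes 1 was then higher. Of the 46 further genes, 2 were then higher (COR28, and RVE3 at 131 reads) and 0 lower, and without overlapping genes 5 were lower. Totals without the 1% most abundant genes changed no call of the 10. The difference of day-to-evening minus morning ranged from 0.07 to 0.11 over these settings. Its interval covered 0 except without PRR7, at 0.11. That value and the one without LUX were added after seeing the data. The interval only just reached 0 with the GC and length correction, from -0.0003 to 0.18, and without LUX, from -0.005 to 0.17. Photoperiod outputs called lower numbered 4 in place of 2 under the centring and the GC correction. With the longest transcript in place of all exons, LHY stood at 2.82 RPKM in DEX and 3.01 RPKM in mock and LUX at 18.9 RPKM in DEX and 19.5 RPKM in mock.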

Other observations

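The authors' deposited table annotates 74 genes with circadian rhythm, among them all 10 clock genes. The 64 others were not mostly higher: 20 were called higher in DEX, 23 lower and 21 not called, with a median log2 ratio of -0.01. Their shares were 31.2% higher and 35.9% lower, against 36.4% and 20.8% of all genes. Of the 50 that stand in none of the lists above, 3 were called lower at 1.5-fold or more, and 0 were higher at that size. Over all genes 2.91% were lower and 4.45% higher at that size. The genes named below were looked up after their values were seen. FSD1, a chloroplast iron superoxide dismutase, had 49 reads in DEX against 119 in mock, giving a log2 ratio of -1.05 ± 0.24. GNC, a GATA factor that promotes greening, had 524 reads in DEX against 988 in mock, giving a log2 ratio of -0.70 ± 0.08. GATA7 had 426 reads in DEX against 876 in mock, giving a log2 ratio of -0.82 ± 0.09. CGA1, the closest relative of GNC, was at -0.40 ± 0.13. At the upper end, CYP72A8, a cytochrome P450, was at 0.52 ± 0.06 and ARR4, a cytokinin response regulator, at 0.40 ± 0.03.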
